A study of Mus musculus with 4 samples.

Results

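Olig2, Nkx6-2 and Six3 encode transcription factors that pattern the neural tube and the forebrain, and their loci were 3 of the regions tiled on a custom array that read nuclear RNA. The cells were mouse embryonic stem cells (ESC) and the neural progenitor cells (NPC) made from them. A probe was taken when its position on mm9 lay in the interval set for the gene, so no measured value entered the choice of probes. The genes themselves were chosen with earlier results of these data known. The intervals were chr16:91200001-91250000 for Olig2, chr7:146740001-146790000 for Nkx6-2 and chr17:86000001-86040000 for Six3. They held 352, 321 and 427 probes, which is 1100 of the 48316 probes on the array and 3 of its 39 tiles (runs of probes with no gap above 50 kb). Both groups came from 46c, a mouse ESC line with a fluorescent reporter at the neural gene Sox1, and the NPC were differentiated from it with the N2B27 protocol. RNA was taken from chromatin of nuclei, amplified, labelled with Cy3 by random priming and hybridised in 1 colour, 2 arrays per group and 4 in all. The series set out to compare the RNA of the Shh region between ESC and NPC. Random priming keeps no strand, and sense and antisense RNA were therefore read together. Each locus is described by the position of the gene within it (91225000-91229000 for Olig2, near 146766000 for Nkx6-2 and near 86020000 for Six3). The mm9 annotation was not used here, so exons, introns and untranslated regions were not placed.

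Olig2 is a basic helix-loop-helix factor of the ventral spinal cord that is required to make motor neurons and oligodendrocytes. Nkx6-2 (also called Nkx6.2) is a homeodomain factor that acts mostly as a repressor in ventral progenitors and later takes part in the maturation of oligodendrocytes. Six3 is a homeodomain factor of the anterior neural plate, needed for the forebrain and the eye, where it represses Wnt genes. Shh, a secreted signalling protein, induces Olig2 and Nkx6-2 in the ventral neural tube, and Gli factors carry that signal to target genes.

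The promoters of the 3 genes are shown because they mark where each gene starts and because the array signal around them is the subject of the comparison. The sequences are RefSeq entries on GRCm38.p6, each of 300 bases read 5′ to 3′ on the gene's strand, and all 3 genes were matched by symbol. Their coordinates belong to GRCm38, not to the mm9 build of the probes, and were not used to place any probe. Capitals mark TATAAA and CCAAT, or the reverse complement ATTGG of CCAAT.
Olig2, chr16:91225300-91225599, plus strand: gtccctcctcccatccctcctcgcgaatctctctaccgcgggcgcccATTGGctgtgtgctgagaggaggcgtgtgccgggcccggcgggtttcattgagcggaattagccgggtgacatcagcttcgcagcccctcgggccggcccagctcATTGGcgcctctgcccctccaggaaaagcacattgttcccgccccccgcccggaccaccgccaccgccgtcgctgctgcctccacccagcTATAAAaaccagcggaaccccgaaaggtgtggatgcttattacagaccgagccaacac
Nkx6-2, chr7:139582748-139583047, minus strand: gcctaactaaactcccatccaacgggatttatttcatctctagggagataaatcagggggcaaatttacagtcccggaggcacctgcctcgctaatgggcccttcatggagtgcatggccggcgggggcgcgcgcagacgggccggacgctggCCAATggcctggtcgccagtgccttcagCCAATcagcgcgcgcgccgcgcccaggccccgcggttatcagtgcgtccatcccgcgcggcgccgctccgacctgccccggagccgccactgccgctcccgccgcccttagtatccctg
Six3, chr17:85620584-85620883, plus strand: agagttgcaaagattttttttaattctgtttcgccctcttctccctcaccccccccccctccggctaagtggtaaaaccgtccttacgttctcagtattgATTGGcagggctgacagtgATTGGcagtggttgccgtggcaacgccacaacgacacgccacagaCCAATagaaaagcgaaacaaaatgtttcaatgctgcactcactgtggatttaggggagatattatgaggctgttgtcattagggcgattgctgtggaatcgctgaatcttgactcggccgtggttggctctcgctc

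The Olig2 promoter holds 1 TATAAA and 2 CCAAT, a GC content of 65.0% and 25 CpG. That of Nkx6-2 holds 2 CCAAT, a GC content of 66.7% and 32 CpG, and that of Six3 holds 3 CCAAT, a GC content of 50% and 14 CpG. The 3 sequences are richer in CpG than the median promoter of the same length, which has 7, while the median GC content is 52.7%. Searched on both strands in 32851 promoters, TATAAA was found in 13.6% and CCAAT in 37.4%. GACCACCCA, the core letters bound by Gli factors, was found in 0.253% of promoters, and none of the 3 sequences has these letters. CANNTG, the letters of the E-box, was found in 72.3% of promoters and stands 1 time in that of Nkx6-2 and in neither of the others. None of the motifs searched overlaps another in these 3 windows. A match of letters is a description and does not show binding.

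Levels are log2 intensity minus the 75th percentile of the array, so 0 is the level of a bright probe and more negative values are dimmer. Levels of different probes also depend on how each probe's sequence hybridises, which was not examined here, so levels are compared between arrays and not between sets of probes. The array as a whole moved: the median 5 kb window (a stretch of 5000 bases with at least 5 probes) changed by -0.34 from ESC to NPC, or by -0.43 without a large tile on chromosome 12 that rose in NPC. The share of probes well above background over the array was 43.6% ± 1.49 (SD, n = 2) in ESC and 54.2% ± 0.0995 in NPC, and that of the negative controls was 2.35% ± 0.107 and 1.52% ± 0.214. Feature Extraction, the scanner's program, gives spots without signal a floor value, and this floor was at -5.77 and -5.88 in ESC and at -6.07 and -6.36 in NPC, a difference of -0.39. Of tiles taken to hold marker genes, 3 of 3 (Nanog, Pou5f1 and Klf4) fell and 2 of 2 (Sox2 and Npas3) rose in NPC. The Npas3 tile is the chromosome 12 tile named above. Over all 46 regions fitted, 58.7% were lower and 8.7% higher (limma, adjusted p under 0.05). These regions include the 3 loci with their cores and flanks. The marker tiles were identified from general map positions and not from an annotation. The labels leave out whether arrays of 1 group had cultures of their own. The p-values therefore cover the spread of these arrays, which may be technical. In such bulk RNA, fewer cells of a type and less RNA per cell cannot be told apart.

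None of the 3 neural patterning loci gained signal as a whole in NPC. Each was read as a mixture of bright and floor-level probes in both cell types, each was slightly dimmer in NPC on the main scale, and each change was close to that of the median window. The exception was 1 probe within the interval given for the Olig2 gene, which was 22.7-fold brighter in NPC. In the fit over regions (limma), 58.7% of 46 regions were lower in NPC and 8.7% higher, and all 3 loci were among the lower ones. The regions were the loci, their cores and flanks, and the other tiles. The loci thus count in these shares themselves, and a share over the other tiles alone was not taken.

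**Figure D1:**
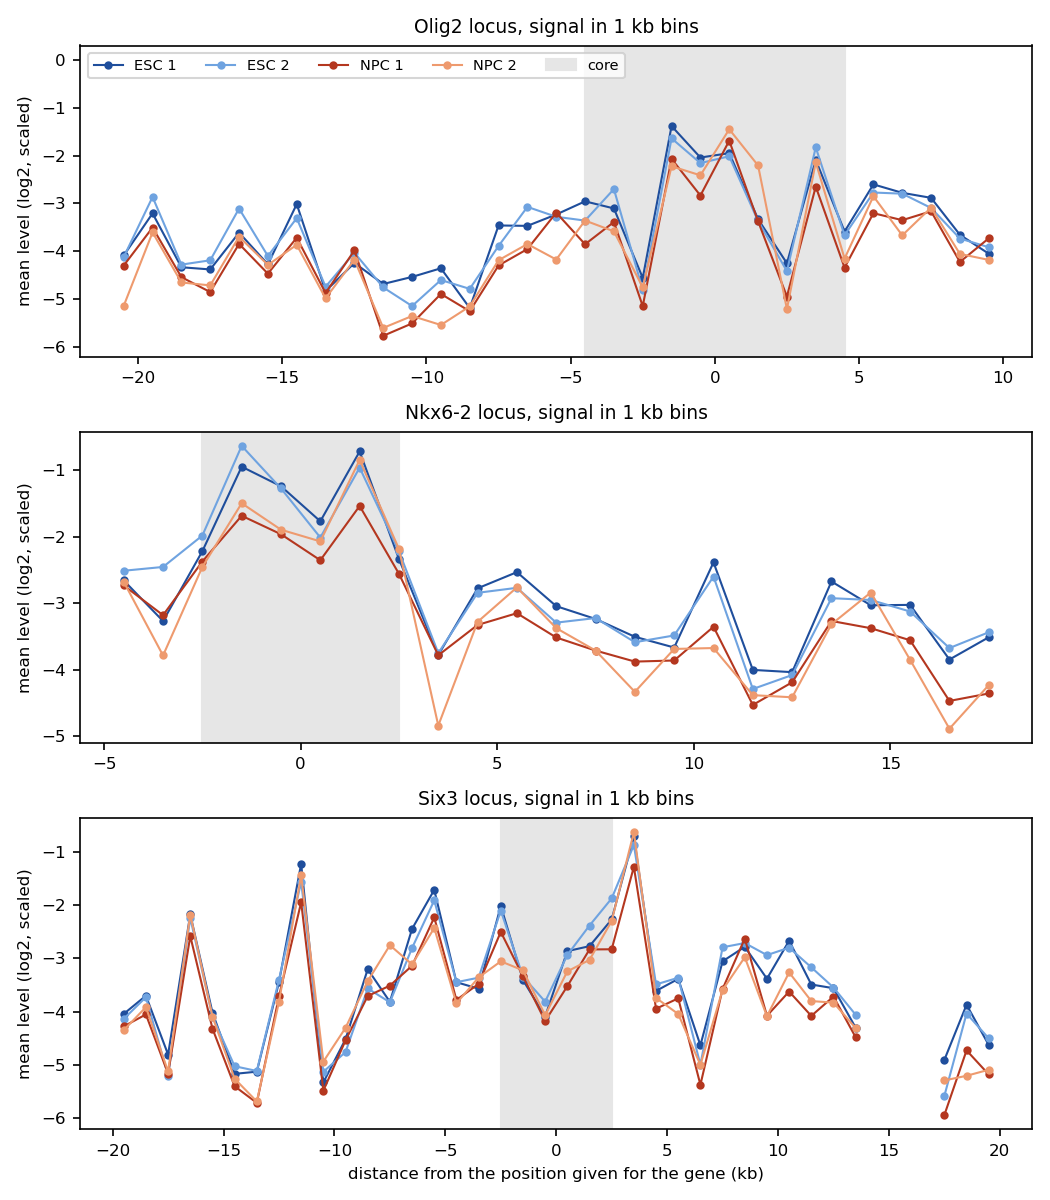
Mean level (log2, scaled) in bins of 1 kb against the distance from the gene in kb, for Olig2, Nkx6-2 and Six3, with 1 line for each of the 4 arrays. The ESC and NPC lines follow the same peaks and troughs in each locus. The NPC mean is lower in 23 of 23 bins of Nkx6-2, 27 of 31 of Olig2 and 32 of 37 of Six3. Bins outside the loci were not counted, and the median 5 kb window of the array also changed by -0.34, or by -0.43 without the chromosome 12 tile.

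The Olig2 locus was tiled from 91206220 to 91236976. Its mean level was -3.42 and -3.45 on the ESC arrays and -3.85 and -3.84 on the NPC arrays. Both NPC arrays lay below both ESC arrays, and the spread within a group was far smaller than the step between groups. The change was -0.41 (95% confidence interval -0.60 to -0.21, adjusted p = 0.0071), a 1.33-fold lower level in NPC. Without ESC 1 or without ESC 2 the change kept its size (-0.40 and -0.42). Such a fit, here and below, takes the spread within a group from the other group alone, since a lone array adds none. Whether it passes therefore does not show that the signal depends on the array left out. Set against the median window the change was -0.067. Its interval, from -0.26 to 0.13, is that of the change with the median taken as fixed. A difference from the median window was not tested. Well above background in ESC were 46.6% ± 1.61 of the Olig2 probes, and 46.2% ± 3.42 were in NPC (SD, n = 2 each, two-sided exact permutation p = 1). The share differed by less than the spread between arrays.

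The core of Olig2, its 119 probes within 2.5 kb of the gene interval, was compared with the 233 probes around it, its flank. The core read -2.78 and -2.83 in ESC, and its NPC values were -3.24 and -2.98. The groups did not overlap, but the change of -0.31 did not pass the test (interval -0.60 to -0.011, adjusted p = 0.062). Without NPC 1 the change was -0.17 and without NPC 2 -0.44. It passed without the single risen probe described below (-0.35, adjusted p = 0.042). With the median over probes it was -0.024 and did not pass. The mean level of the core minus that of the flank, which adding a constant to an array does not move, was 0.98 and 0.93 in ESC against 0.93 and 1.29 in NPC. These values overlapped (two-sided exact permutation p = 1, where 2 arrays against 2 cannot go below 0.33). The NPC minus ESC difference of this measure, 0.15, was -0.022 with normexp and quantile normalization and 0.090 with a common floor, alternatives for this measure that were added after the values were seen. Of the core probes, 58.4% ± 0.594 were above background in ESC and 58.8% ± 4.75 in NPC.

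Along the Olig2 tile, 3 of 7 windows were lower in NPC and 0 were higher, against a background of 29.6% of the 963 windows lower and 21.9% higher (limma, adjusted p under 0.05). The window over the gene, 91225001-91230000, read -2.54 and -2.67 in ESC and -2.95 and -2.72 in NPC. Its change, -0.23 (SE 0.15, adjusted p = 0.24), was the smallest fall of the locus and did not pass the test. The windows on either side of it were both lower, by -0.48 at 91220001-91225000 (adjusted p = 0.036) and by -0.47 at 91230001-91235000 (adjusted p = 0.043). The window 91215001-91220000 had the largest fall on the main scale, -0.60 (adjusted p = 0.036), and 26% of its probes were above background on each ESC array. With a common floor its change was -0.38 (adjusted p = 0.095), smaller than the -0.40 of both windows beside the gene, and no window of the locus was called. Without either ESC array, 0 windows of the locus were called.

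The Olig2 gene interval itself held 52 tested probes. At 91227058-91227117, close to its middle, 1 probe read -3.29 and -3.35 in ESC and 0.92 and 1.45 in NPC. It was above background on all 4 arrays, went from a dim to a bright spot, and rose by 4.50 (SE 0.34, adjusted p = 0.010). The probe that ends next to it, at 91226998-91227057, read -3.97 and -2.59 in ESC and -1.28 and 0.17 in NPC. Both NPC values of that neighbour were above both ESC values, but its change of 2.72 did not pass the test (adjusted p = 0.12). The probe on the other side, at 91227118-91227177, read -5.77 and -5.36 in ESC and -5.02 and -6.36 in NPC, not well above background on any array, and changed by -0.13. The rise was thus carried by 1 called probe of 60 bases and an uncalled one beside it. A pair of other probes above background on all arrays is given here, chosen after the values were seen, and neither was called. At 91227416-91227475 the levels were 1.91 and 2.26 in ESC and 1.05 and 2.23 in NPC. At 91225808-91225867 they were 2.01 and 1.52 in ESC and 1.47 and 2.05 in NPC. These chosen probes thus read bright in ESC too, at levels that overlapped those in NPC. Other bright probes of the interval, also picked after the values were seen, were lower in NPC without overlap. At 91226758-91226817 the levels were 1.26 and 1.31 in ESC and 0.041 and 0.057 in NPC (change -1.23, adjusted p = 0.079). The probe at 91225279-91225338 changed by -0.87 (adjusted p = 0.22). Neither was called. The overlapping probes therefore do not stand for all bright probes of the interval. Whether the signal of any of these probes came from RNA of Olig2 was not tested.

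Over the whole gene interval, 20 probes changed by more than 0 and 32 by less, with a median of -0.22. Before the rising pair, 27 probes had a median change of -0.39 and 4 of them were above 0. After it, 23 probes had a median change of 0.20 and 14 were above 0. This split at the pair was chosen after the values were seen and carries no test. Several of the later rises were seen on 1 NPC array only. The probe at 91228570-91228629 read -2.46 and -2.62 in ESC, -2.73 on NPC 1 and 0.39 on NPC 2. That at 91228136-91228195 read -2.33 and -2.70 in ESC, 0.40 on NPC 1 and -2.03 on NPC 2. These probes, named after their values were seen, were not called.

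**Figure D2:**
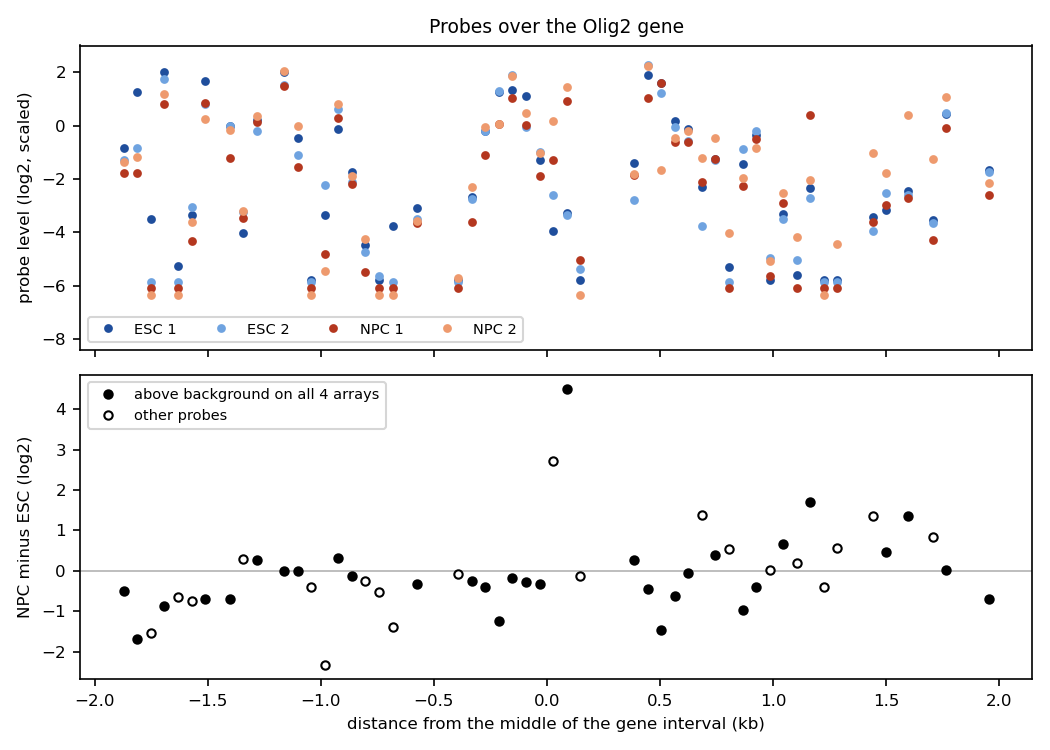
The 52 probes of the Olig2 gene interval by distance from its middle in kb. The upper panel gives the level (log2, scaled) on each of the 4 arrays and the lower panel the change from ESC to NPC, with filled points for probes above background on all arrays. One probe stands out at 4.50, with its neighbour at 2.72, and the others lie between -2.33 and 1.70.

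In the whole Olig2 locus, 1 probe was higher and 4 were lower in NPC, against a background of 10.7% of all probes higher and 1.58% lower. Among the lower ones, the probe at 91215042-91215101 read -2.12 and -1.45 in ESC and was not well above background in NPC (-6.07 and -5.51), at least 4.29-fold lower. The probe at 91220760-91220819 read -2.34 and -1.96 in ESC and was not well above background in NPC (-5.01 and -6.36), at least 3.33-fold lower. A bound of this kind sets the brighter group's mean against the lowest signal that counted as above background on each dimmer array, or the probe's own value there if higher. The probes next to these 2 were not called. Their neighbours at 91215102-91215161 and 91220909-91220968 sat at the floor on all 4 arrays. The probe from 91220760 lost its call in 3 of 15 alternatives, among them without ESC 2 (adjusted p = 0.050), and that from 91215042 in 0 of 15.

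The Nkx6-2 locus, tiled from 146760873 to 146783674, had 321 probes. Its level was -2.74 and -2.71 on the ESC arrays and -3.18 and -3.18 on the NPC arrays. Both NPC arrays lay below both ESC arrays. The change was -0.46 (95% confidence interval -0.65 to -0.27, adjusted p = 0.0063), a 1.37-fold lower level. Without ESC 1 it was -0.47 (adjusted p = 0.081) and without ESC 2 -0.45 (adjusted p = 0.086). Against the median window, again taken as fixed and not tested, it was -0.12, with an interval from -0.31 to 0.077. Of its probes, 60.1% ± 1.76 were above background in ESC, and 58.9% ± 2.20 were in NPC (SD, n = 2 each, two-sided exact permutation p = 0.67).

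The Nkx6-2 core, 72 probes within 2.5 kb of the gene position, was also lower in NPC. Its level was -1.51 and -1.50 in ESC against -2.07 and -1.81 in NPC. The groups did not overlap, and the change of -0.44 passed the test (interval -0.73 to -0.14, adjusted p = 0.021), though not without ESC 1 or ESC 2 (adjusted p = 0.13 and 0.15). Core minus flank was 1.58 and 1.57 in ESC against 1.43 and 1.77 in NPC, values that overlapped (two-sided exact permutation p = 1). Its NPC minus ESC difference ran from -0.091 to 0.093 over the 9 scalings described further on. The share of core probes above background was 76.4% on both ESC arrays and 73.6% and 77.8% on the NPC arrays.

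Of the 5 Nkx6-2 windows, 3 were lower in NPC and 0 higher, against the 29.6% and 21.9% of all windows, or 35.7% lower outside the chromosome 12 tile. The windows that overlap the core read -2.29 and -1.89 in ESC against -2.50 and -2.58 in NPC at 146760001-146765000, and -1.92 and -2.01 against -2.41 and -2.32 at 146765001-146770000. Their changes, -0.45 (SE 0.18, adjusted p = 0.097) and -0.40 (SE 0.13, adjusted p = 0.058), did not pass the test. The window farthest along the tile, 146780001-146785000, had the largest fall on the main scale, -0.57 (adjusted p = 0.026), which was -0.44 (adjusted p = 0.061) with a common floor. No 1 kb bin of this locus was above 0, while the median 5 kb window of the array changed by -0.34 and bins elsewhere were not counted. The count of lower windows fell to 0 without either ESC array.

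No Nkx6-2 probe was called higher in NPC, and 4 (1.26%) were lower, a share near the 1.58% of all probes. The probe at 146776518-146776577 read -3.29 and -2.87 in ESC and sat at the floor in NPC, at least 1.75-fold lower. The probe at 146762651-146762710 read -2.48 and -2.34 in ESC and -4.30 and -4.24 in NPC, not well above background, at least 2.79-fold lower. The probe at 146779930-146779989 was not well above background in either group, so its call of -1.99 (adjusted p = 0.028) is no measured change of signal. All 4 lay outside the core, and the neighbours of the 3 named ones were not called. Of the 3, the probe from 146762651 lost its call in 6 of 15 alternatives, that from 146779930 in 6 of 14 and that from 146776518 in 1 of 15. The probes from 146762651 and 146779930 lost it without ESC 1 and without ESC 2 (adjusted p from 0.13 to 0.17).

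The Six3 locus, tiled from 86000052 to 86039902, had a level of -3.46 and -3.45 on the ESC arrays and of -3.84 and -3.74 on the NPC arrays. The groups did not overlap. The change was -0.34 (95% confidence interval -0.55 to -0.13, adjusted p = 0.018), a 1.26-fold lower level. Without ESC 1 or ESC 2 the size held (-0.34 and -0.34) but not the call (adjusted p = 0.13 and 0.14). Against the median window, again taken as fixed and not tested, the change was 0.0042, with an interval from -0.21 to 0.21. Above background were 47.4% ± 1.16 of its probes in ESC and 47.7% ± 6.13 in NPC (n = 2 each, two-sided exact permutation p = 1). The NPC arrays differed more from each other here, at 43.3% and 52.0%, than the ESC arrays did.

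The Six3 core held 51 probes. Its level was -3.18 and -2.97 in ESC against -3.46 and -3.40 in NPC, without overlap, and the change was -0.36 (interval -0.62 to -0.097, adjusted p = 0.027). Without ESC 1 it was -0.46 and without ESC 2 -0.26, and neither passed (adjusted p = 0.081 and 0.21). Core minus flank was 0.32 and 0.55 in ESC against 0.44 and 0.38 in NPC (two-sided exact permutation p = 1). Of the core probes, 57.8% were above background in the mean of ESC and of NPC alike.

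The windows of Six3 ran from nearly level to clearly lower along the tile. The 5 windows from 86000001 to 86025000 changed by between -0.36 and -0.14 and none passed the test. The 3 windows from 86025001 to 86040000 were all lower (the first and second are named after their values were seen), by -0.50 (adjusted p = 0.036), -0.47 (adjusted p = 0.048) and -0.68 (adjusted p = 0.021). The last of these had the largest fall on the main scale, from -4.45 and -4.62 in ESC to -5.22 and -5.22 in NPC, and its change with a common floor was -0.48 (adjusted p = 0.049). The window that starts at the gene, 86020001-86025000, read -2.57 and -2.38 in ESC and -2.95 and -2.72 in NPC, with a change of -0.36 (SE 0.16, adjusted p = 0.11). The other window over the core, 86015001-86020000, read -3.30 and -3.21 in ESC against -3.46 and -3.52 in NPC, a change of -0.24 (SE 0.13, adjusted p = 0.17). Set against the rest of its own tile, no Six3 window passed the test, the smallest adjusted p being 0.17. The difference between the ends of the locus is therefore a description. No window was called without ESC 1 or without ESC 2, and 5 were called without NPC 2.

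Of the Six3 probes, 8 (1.88%) were lower and 2 (0.469%) higher in NPC, against 1.58% and 10.7% of all probes. The count of higher probes was unstable: it was 0 with the percentile over all probes, normexp, the authors' values, an intensity trend and the replicate block. It was 13 with the medians of the SRN control spots. The probe at 86011536-86011595 read 0.79 and 0.45 in ESC, a bright spot, and was not well above background in NPC (-6.07 and -4.93), at least 22.7-fold lower (adjusted p = 0.011). The probe at 86022194-86022253, in the core, read -1.16 and -0.27 in ESC and -5.27 and -4.63 in NPC, at least 9.01-fold lower (adjusted p = 0.015). The probe at 86027508-86027567 read -2.22 and -2.27 in ESC and sat at the floor in NPC, at least 3.13-fold lower. In none of these cases was an adjoining probe called. The probes from 86011536 and 86027508 kept their calls in 15 of 15 alternatives, and that from 86022194 in 13 of 15. Beside the first, the probe at 86011476-86011535 changed by 0.76 and that at 86011596-86011655 by 0.38, and neither was called.

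The 2 Six3 probes that were higher lay close to that first probe, at lower coordinates, and are named after their values were seen. The probe at 86010335-86010394 was not well above background in ESC (-5.49 and -5.84) and read -3.30 and -3.90 in NPC (adjusted p = 0.044). The probe at 86011120-86011179 sat at the floor in ESC and read -4.12 and -3.41 in NPC, above background on 1 of the 2 arrays (adjusted p = 0.046). A bound on the fold was under 1 for both, so none is given.

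**Figure D3:**
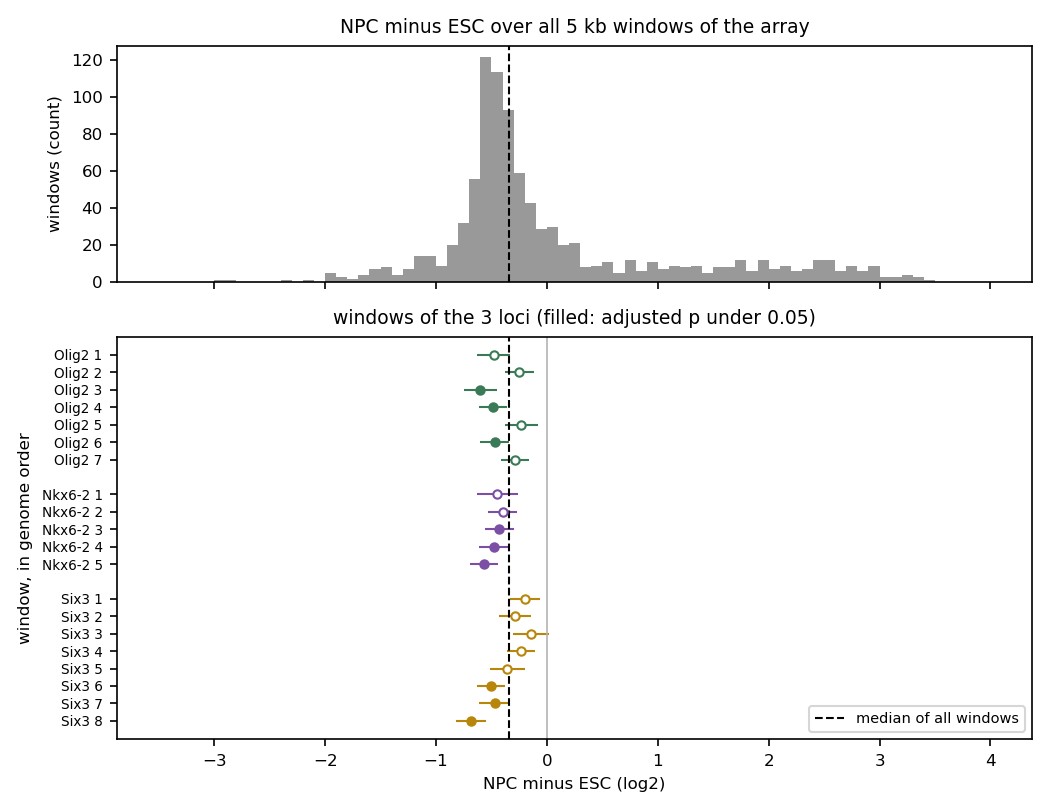
The upper panel counts the 963 windows of the array by their change from ESC to NPC (log2). The lower panel gives the change of each of the 20 windows of the loci in genome order, with the standard error as bars and filled points for an adjusted p under 0.05; the dashed line marks the median of all windows, -0.34, and the 20 points lie from -0.68 to -0.14, on both sides of it.

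Over all 3 loci, 9 of 20 windows (45%) were lower and 0 were higher in NPC. At an unadjusted p under 0.05, 11 were lower and 0 higher. The median change was -0.44, against -0.43 for windows outside the chromosome 12 tile, of which 35.7% were lower. Relative to the rest of their tile, none of the 20 windows was called in either direction, while 14.4% of all windows were lower and 14.5% higher on that measure. Of the 1092 probes of the loci that were tested, the other 8 having been marked as outliers, 16 were lower (1.47%) and 3 higher (0.275%). Over the array 1.58% of probes were lower and 10.7% higher, or 1.94% and 2.59% outside the chromosome 12 tile. The lower share was thus near the background, and the higher share below it. Of the 16 lower probes, 14 were not well above background on either NPC array, and 3 of them were dim in both groups. Counts of called probes turned with the scaling, from 22 lower and 1 higher with the percentile over all probes to 10 lower and 15 higher with the medians of the SRN spots.

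The share of probes that went from dark to lit in NPC was below that of the array, and the share that went the other way was near it. Over the 3 loci, 10 tested probes (0.916%) were above background on both NPC arrays and on no ESC array, and 19 (1.74%) on both ESC arrays and no NPC array. The same shares over the array were 10.8% and 1.48%, and the first was 3.67% without the chromosome 12 tile. Among probes above background on all 4 arrays, the mean change was -0.33 in 120 probes of Olig2 and -0.36 in 150 of Nkx6-2. In 154 of Six3 it was -0.33. Over the array it was -0.057, or -0.23 without the chromosome 12 tile, and the difference from the loci was not tested. So the lower level was also seen in probes that were measured throughout. The probes at the floor on all arrays (49 in Olig2, 23 in Nkx6-2 and 47 in Six3) took the change of the floor, -0.39. With a common floor on all arrays the changes of the loci were -0.29, -0.38 and -0.25, and that of Six3 no longer passed (adjusted p = 0.053).

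The order of probes by level was close in both cell types. Across the 349 probes of Olig2, Spearman's rho between an ESC and an NPC array was between 0.826 and 0.882, and 0.883 between the ESC arrays. In Nkx6-2 (317 probes) it was between 0.847 and 0.931, and 0.931 between the ESC arrays. In Six3 (426 probes) it was between 0.797 and 0.875, and 0.90 between the ESC arrays. Probes of an array share its probe sequences and its labelling, and neighbouring probes are not independent, so these values are descriptions. In all 3 loci NPC 1 was more like ESC 2 than like NPC 2, at 0.882 against 0.854 in Olig2, 0.931 against 0.858 in Nkx6-2 and 0.875 against 0.852 in Six3. This was not particular to the loci. In the Shh tile the highest value between groups, 0.866, was also above that between the NPC arrays, 0.803. It was not in the chromosome 12 tile, at 0.490 against 0.798. Over 37 regions of the array outside the loci, the mean rho between ESC and NPC arrays ran from 0.480 to 0.895, with a median of 0.814.

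The direction of the locus changes depends on how the arrays are set against each other. The position of each locus relative to the median window cannot move under scalings that only add a constant to an array. Only normexp with quantile normalization, the common floor and the authors' values could move it. Over 9 scalings, the Olig2 change ran from -0.79 to 0.20, that of Nkx6-2 from -0.84 to 0.15 and that of Six3 from -0.72 to 0.27. All 3 were above 0 under 1 scaling, the medians of the control spots named SRN, where no change passed the test. Relative to the median window of the same scaling, Olig2 stayed between -0.10 and -0.048, Nkx6-2 between -0.19 and -0.12, and Six3 between -0.064 and 0.0042. None of the 9 scalings called a locus or core higher.

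**Figure D4:**
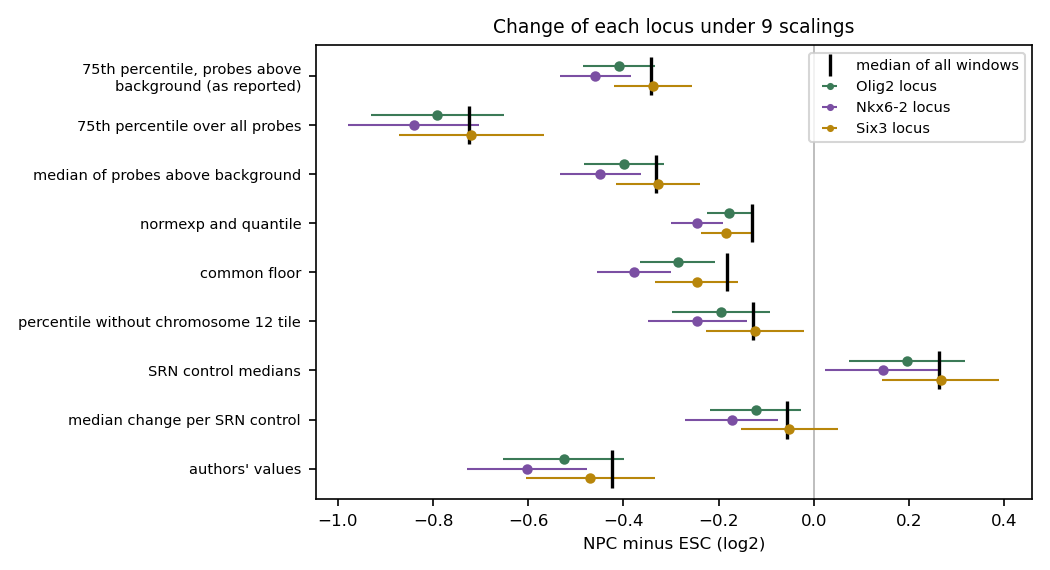
Change from ESC to NPC (log2, points, with the standard error as bars) of the Olig2, Nkx6-2 and Six3 loci under 9 scalings, with a black mark for the median of all windows under the same scaling. The points move together with the black mark, from about the level of -0.72 to that of 0.26, and lie above 0 under 1 scaling. Scalings that only add a constant to an array move points and mark alike by construction.

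Regions of other patterning genes give the setting of these values. Of 8 tiles taken to hold such genes, 1 was higher in NPC (Sox2, a factor of neural progenitors and stem cells, 0.53). A further 2 were lower, that of Shh by -0.58 and that of Bmp4, a signal that favours dorsal and epidermal fates, by -1.22. The other 5 were called in neither direction: Ptch1, the Shh receptor, at -0.074, Pax7 at 0.093, the Bmp antagonist Nog at -0.29, Sox9 at 0.23 and HoxD at -0.20. Tiles differ in length, and a whole-tile mean can hide opposite changes. Of 45 Pax7 windows 10 were higher and 14 lower, and of 75 HoxD windows 4 were higher and 17 lower. The Ptch1, Nog and Sox9 tiles had at most 1 called window each. The median of the 8 tiles was -0.14, against -0.37 over all regions, which include the loci with their cores and flanks. Over the 9 scalings, the signs of Shh, Ptch1, Pax7, Nog, Sox9 and HoxD turned under at least 1 of them, and those of Sox2 and Bmp4 under none. The changes of Olig2, Nkx6-2 and Six3 lay between that of Shh and that of Nog on the main scale.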

How the data were processed

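Nuclear RNA of 2 ESC and 2 NPC arrays was analysed. All 4 arrays share 1 slide and 1 scan, which leaves no batch of either kind to test. The scanner program, per the file headers Agilent's Feature Extraction (version 11.5.1.1), gave background-subtracted intensity for probes of 60 bases on mm9, with a floor for low values and no normalization between arrays. The deposited files also hold other values, yes or no marks for spots above background, saturated or outlying. The authors' own table holds log2 values, as judged from the values. The submitters' processing notes name limma. How that table was scaled, centred and filtered is not given in the sources used here. Its column medians were 4.95, 4.95, 4.97 and 4.99, and 6777 probes had no value. Its ESC 1 column had a Spearman correlation of 0.873 with its own scanner file, the others 1, so it served as an alternative.

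The 3188 control spots and outlier spots were left out. Values were log2 intensity minus the 75th percentile over the 15356 probes above background on all arrays, because 48.9% of probes, under 50%, were above background. Means over probes were fitted for 46 regions, 963 windows of 5 kb and 47900 single probes with lmFit and eBayes of limma 3.58.1 (R 4.3.3) and Benjamini-Hochberg adjustment over each whole table. A call is an adjusted p under 0.05, and every adjusted p is from limma. The code was tested on simulated data. The number of arrays limits the precision. Normexp (offset 50) used the median spot signal in place of the mean. Named windows are those over a core and those with the largest rise or fall or the highest share above background, and named probes are the 3 largest called changes of a locus. The members and lists were chosen with earlier results of these data known. Alternatives were 9 scalings in all, summaries, filters, window sizes, left-out arrays and a replicate block. Python 3.11.15 and matplotlib 3.10.9 made the figures.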

Additional observations from a re-analysis of the deposited data

Results flagged for a closer look

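The Six3 tile reaches beyond the interval set for Six3, and 254 of its probes lie outside it. These probes, which entered no comparison of the locus, gave signal above the negative controls: 42.3% were well above background over the 4 arrays (ESC 44.3% ± 2.51 and NPC 40.4% ± 3.06, mean and SD of 2 arrays each), against 1.93% of the negative controls. Their level changed by -0.50 from ESC to NPC (SE 0.083, adjusted p = 0.0063, limma).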

How the results depend on the processing

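Every call on a locus or core change rests on the scaling and on the spread between the ESC arrays that enters the fit. With the medians of the SRN control spots all 6 changes turned above 0 and none was called: 0.20 (locus) and 0.30 (core) for Olig2, 0.15 and 0.17 for Nkx6-2, and 0.27 and 0.24 for Six3. Without the chromosome 12 tile in the percentile they were -0.19 for the Olig2 locus, -0.24 and -0.22 for Nkx6-2 and -0.12 and -0.15 for Six3, and no longer passed. By the SRN spots taken one by one they were -0.12, then -0.17 and -0.15, then -0.051 and -0.074, and did not pass either. The Six3 locus lost its call with a common floor (-0.25), and its locus and core did with the median over probes (-0.37 and -0.33). The Olig2 core passed when all probes set the percentile (-0.69), and with normexp (-0.19), the authors' values (-0.47) and a core of 5000 bases (-0.40). It also passed without the risen probe (-0.35), an alternative chosen after seeing the data. Its fall nearly vanished with the median over probes (-0.024) and by the SRN spots taken one by one (-0.018). Without the chromosome 12 tile in the percentile it was -0.091. None of these last alternatives called it.

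Leaving out 1 array at a time gave -0.42 to -0.40 for the Olig2 locus and -0.44 to -0.17 for its core, -0.47 to -0.45 and -0.57 to -0.30 for Nkx6-2, and -0.39 to -0.29 and -0.46 to -0.26 for Six3. The lone array of a group was assumed to vary like the other group. Counts of lower windows then ran from 0 to 4 for Olig2, 0 to 4 for Nkx6-2 and 0 to 5 for Six3.

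The counts of lower windows (3 in each locus) were, for Olig2, Nkx6-2 and Six3 in that order, 7, 5 and 8 when all probes set the percentile, 5, 5 and 5 with the authors' values, and 0, 0 and 1 with a common floor. They were 0, 0 and 0 without the chromosome 12 tile, with either use of the SRN spots, and for windows relative to the rest of their tile. Olig2 had 1 and Nkx6-2 1 with the median over probes, Olig2 1 without dim probes, Olig2 0 and Six3 1 in windows of 2 kb, and Six3 5 with normexp. No alternative called a window higher.

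Of the windows named, those of Olig2 from 91215001, 91220001, 91225001 and 91230001 turned above 0 with the SRN medians (0.0058, 0.12, 0.38 and 0.13), as did those of Six3 from 86015001 and 86020001 (0.37 and 0.25) and of Nkx6-2 from 146760001, 146765001 and 146780001 (0.16, 0.21 and 0.038). The Olig2 window from 91225001 was also above 0 with the median over probes (0.42) and per SRN spot (0.057), and the Six3 window from 86015001 per SRN spot (0.051). None of these was called. The risen Olig2 probe kept its call in 15 of 15 alternatives, at 2.50 to 5.11. Of the other 8 named probes, 5 lost theirs under at least 1 alternative, as given beside each.

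The labels do not say whether the replicate numbers pair the arrays. The deviations of ESC 1 and NPC 1 from their group means had a correlation of -0.028 over 47900 probes, which cannot settle it. With the replicate block, the calls of the 6 changes stayed as they were. All 6 then had the same standard error, 0.15, pooled over the regions. These calls therefore hold nothing of a locus's own spread. Lower windows numbered 0, 0 and 1 with the block. Over the array, 149 windows were then lower, against 285.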
